A study of Mus musculus with 42 samples.

Results

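Ccl25/Elavl1, Ccdc122/Lacc1, Sp3os/Sp3, Ofd1/Trappc2 and Wdr78/Mier1 are 5 pairs of mouse genes that lie on opposite DNA strands and overlap each other in the GENCODE gene annotation. The pairs were chosen by the difference of the first gene between RECTAS and DMSO. The second gene, the partner, was taken for its position on the other strand, but the pairs were chosen with earlier results of these data known. The question was whether the partner changed too. The pairs held 10 of the 55401 genes in the deposited tables, and all 10 had a value in every library.

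RNA was measured in 7 mouse cancer cell lines kept for 6 h with 10 µM RECTAS dissolved in 0.1% DMSO, or with 0.1% DMSO alone. Each line and treatment had 3 libraries, 42 in all. The lines were B16 (melanoma), CT26 (colorectal adenocarcinoma), EG7 (lymphoma, a line that carries an ovalbumin gene), LLC (lung carcinoma), MC38 (colorectal carcinoma), Pan02 (pancreatic adenocarcinoma) and WEHI3 (leukemia). Whether the 3 libraries of a group were separate cultures is not stated, so every p-value measures only the spread between these samples, which may be technical. RECTAS is a small molecule that alters splicing, and CLK kinases and SRSF6, a splicing factor they phosphorylate, are its known route of action. Melanocyte markers reached 1 TPM for 5 of 5 genes in B16, and T lymphoid markers did for 5 of 5 in EG7. Myelomonocytic markers did so for 4 of 5 in WEHI3. Against these identities, T lymphoid markers averaged 440.0 TPM in WEHI3 (2 of 5 at 1 TPM), beside 295 TPM in EG7. Myelomonocytic markers averaged 162 TPM in B16 (1 of 5), and melanocyte markers 6.43 TPM in EG7 (1 of 5) and 0.247 TPM in WEHI3 (1 of 5). In CT26, 2 of 5 T lymphoid and 2 of 5 myelomonocytic genes reached 1 TPM, with means of 0.846 TPM (T lymphoid) and 1.47 TPM (myelomonocytic). Epithelial markers did so for 4 of 5 genes in Pan02 and 2 of 5 in LLC, but for 0 of 5 in the colorectal lines CT26 and MC38, where they averaged 0.112 and 0.0387 TPM with DMSO.

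Genes that start close together and run away from each other often share a CpG-rich promoter, from which polymerase can leave in both directions. Where their first exons also overlap, the 2 RNAs are complementary over that stretch, and a read from it belongs to the gene whose strand it came from. Libraries from the stranded kit used here keep that information, but the sources used here do not say whether the strand was used to assign reads to genes. The values of both genes of a pair are uncertain to the extent that such reads could be assigned to either.

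All 5 pairs overlapped at their 5′ ends, head to head (GRCm38, GENCODE M21 annotation). The overlap was taken from the outermost annotated start of each gene and depends on the annotation. At the RefSeq starts behind the promoter windows below, Ccl25/Elavl1, Ccdc122/Lacc1 and Ofd1/Trappc2 do not overlap. Both RefSeq windows of Mier1 lie outside its overlap with Wdr78. Ccl25 (ENSMUSG00000023235) lies on chromosome 8 from 4325210 to 4360020 on the plus strand and Elavl1 (ENSMUSG00000040028) from 4285382 to 4325413 on the minus strand, with 204 bases in common. Ccdc122 (chromosome 14, 77036772 to 77112257, plus) and Lacc1 (77024200 to 77036904, minus) shared 133 bases. Ofd1 (chromosome X, 166390033 to 166440704, minus) and Trappc2 (166440574 to 166453140, plus) shared 131 bases. In these 3 pairs the whole overlap was exon of both genes. In Lacc1 it was exon only through a transcript annotated as a retained intron, which starts at 77036904. The protein-coding Lacc1 transcripts start at 77036641 and 77036081, outside the overlap. Sp3os, an antisense transcript without a coding sequence (chromosome 2, 72979424 to 72988677, plus), overlapped Sp3 (72936427 to 72980446, minus) over 1023 bases, of which 109 were exon in both. Wdr78 (chromosome 4, 103038065 to 103114555, minus) and Mier1 (103114390 to 103165754, plus) shared 166 bases, of which 130 were exon in both.

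The shared exon made up a small part of each gene, counted over the exons of all its annotated transcripts. It was 12.22% of the exonic bases of Sp3os, 6.7% of those of Ccdc122 and 2.942% of those of Ofd1. For Ccl25 it was 2.74% and for Wdr78 1.779%. In the partners it ran between 1.039% (Mier1) and 3.65% (Lacc1). In a single transcript that starts in the overlap the share may be larger. With DMSO the partner had the higher mean TPM in every line that expressed the pair. The ratio ran from 2.57 (WEHI3) to 15.5 (Pan02) for Elavl1 over Ccl25, and from 10.8 (Pan02) to 58.9 (WEHI3) for Mier1 over Wdr78. How far partner reads in the shared exon weigh on the changed gene was not tested. The Ccl25 gene has 10 annotated transcripts, of which 7 start within 250 bases of the overlap. Only 2 of its 4 protein-coding transcripts start there, and the other 2 start at base 4349588, outside the overlap. Some protein-coding transcripts of Elavl1, Trappc2, Wdr78 and Mier1 also start outside the overlap. TPM per gene does not tell the transcripts of a gene apart.

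**Figure D1:**
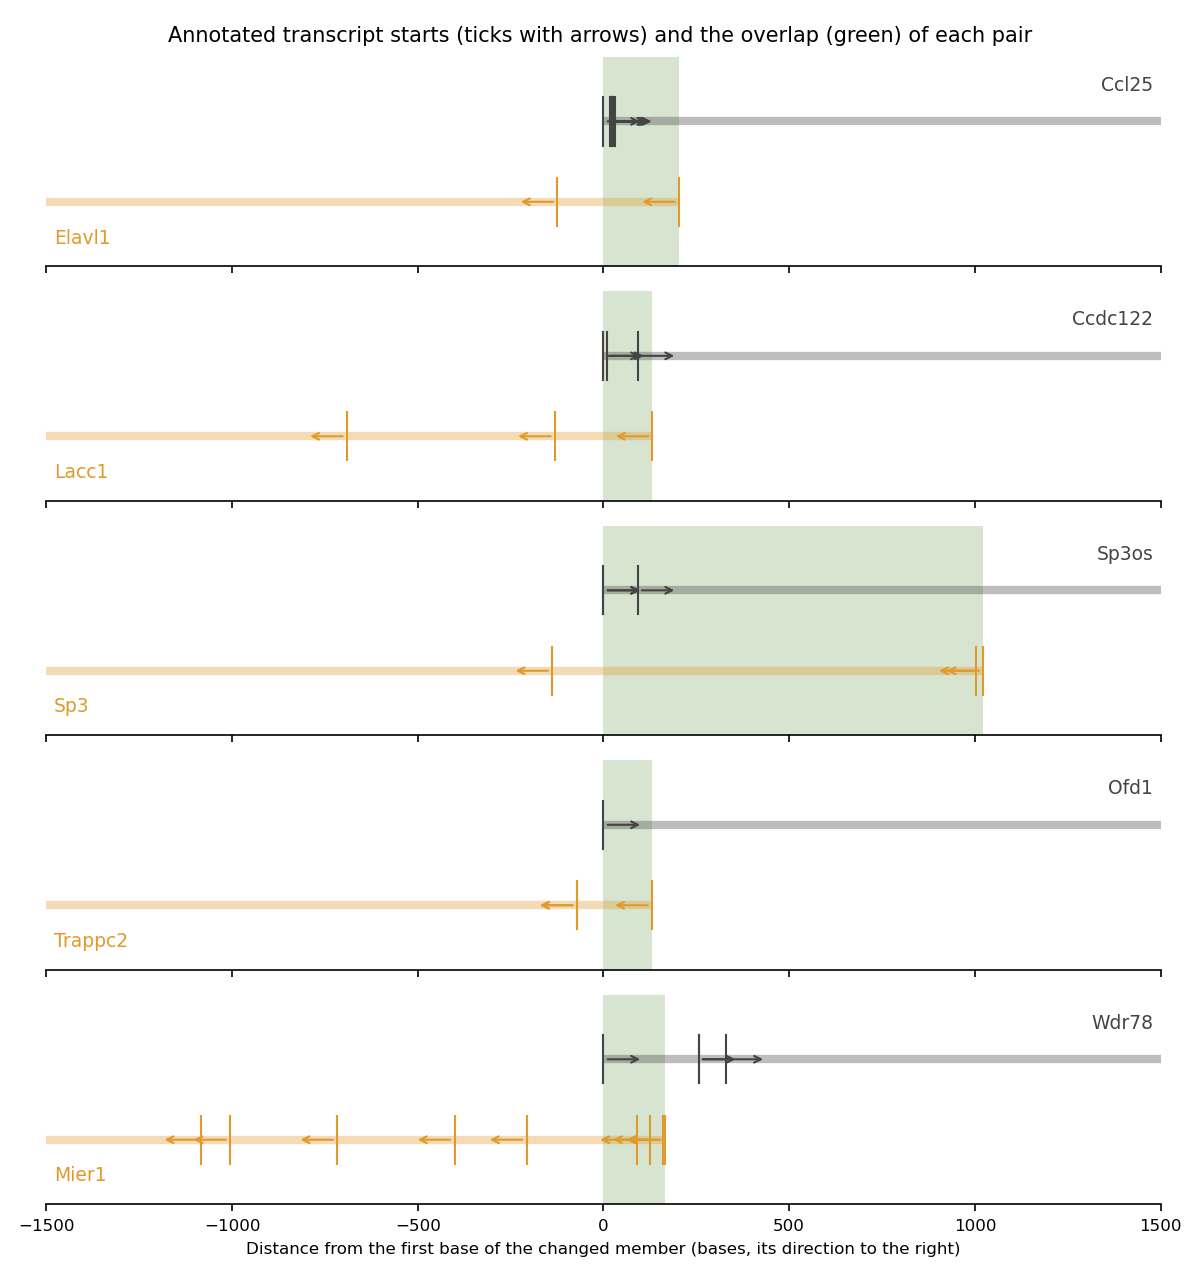
Map of the 5′ ends of the 5 pairs, drawn as distance in bases from the first base of the changed gene (grey, above), which runs to the right, with its partner (orange, below) running to the left. Ticks with arrows are annotated transcript starts and the green area is the overlap, from 131 bases in Ofd1/Trappc2 to 1023 bases in Sp3os/Sp3.

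For 3 pairs the RefSeq promoter windows of the 2 genes overlap, so 1 stretch of DNA serves as the promoter window of both. Each window (GRCm38.p6) runs from 250 bases before to 50 after a RefSeq start. The RefSeq starts of Elavl1, Lacc1 and Trappc2 are not the outermost GENCODE starts given above. The Elavl1 window (4325051 to 4325350) does not hold base 4325413, and the Lacc1 window (77036568 to 77036867) does not hold base 77036904. The 3 windows are printed because they carry what these pairs have in common, on the strand of the gene named first, with capitals for the bases that lie in the windows of both genes. They are chr8:4324960-4325259 on the plus strand, chr14:77036522-77036821 on the plus strand and chrX:166440655-166440954 on the minus strand.
Ccl25, shared with Elavl1: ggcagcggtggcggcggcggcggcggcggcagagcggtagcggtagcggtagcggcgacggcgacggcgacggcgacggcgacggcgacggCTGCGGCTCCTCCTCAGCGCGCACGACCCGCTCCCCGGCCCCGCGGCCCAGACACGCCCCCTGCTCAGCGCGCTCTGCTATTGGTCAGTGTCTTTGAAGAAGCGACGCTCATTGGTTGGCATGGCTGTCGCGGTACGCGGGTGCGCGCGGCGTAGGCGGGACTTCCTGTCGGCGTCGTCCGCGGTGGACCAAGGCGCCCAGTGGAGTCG
Ccdc122, shared with Lacc1: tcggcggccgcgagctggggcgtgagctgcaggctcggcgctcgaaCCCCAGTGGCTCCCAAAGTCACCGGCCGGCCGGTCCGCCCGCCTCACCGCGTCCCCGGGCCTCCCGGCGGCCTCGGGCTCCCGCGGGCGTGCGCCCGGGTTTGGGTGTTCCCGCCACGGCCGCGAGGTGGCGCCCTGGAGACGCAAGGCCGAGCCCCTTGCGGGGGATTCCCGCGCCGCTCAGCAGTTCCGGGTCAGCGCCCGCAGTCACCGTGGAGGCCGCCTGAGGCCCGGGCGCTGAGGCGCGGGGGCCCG
Ofd1, shared with Trappc2: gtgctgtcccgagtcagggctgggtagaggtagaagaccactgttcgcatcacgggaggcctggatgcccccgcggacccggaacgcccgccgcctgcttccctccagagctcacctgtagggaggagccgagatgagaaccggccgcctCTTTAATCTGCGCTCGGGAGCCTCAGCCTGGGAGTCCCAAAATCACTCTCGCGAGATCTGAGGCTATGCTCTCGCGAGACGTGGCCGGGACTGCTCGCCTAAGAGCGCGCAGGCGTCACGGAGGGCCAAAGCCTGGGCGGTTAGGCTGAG

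The shared stretch was 209 bases with 70.33% G or C for Ccl25 and Elavl1, 254 bases with 79.53% for Ccdc122 and Lacc1, and 150 bases with 63.33% for Ofd1 and Trappc2. The ratio of observed to expected CpG was 1.122, 0.9227 and 0.9358 in that order of pairs, beside medians of 52.67% G or C and 0.3836 over all 32851 promoter windows. The downstream Ccl25 window, at the start used by its other coding transcripts, held 51.67% G or C with a CpG ratio of 0.0546. The Mier1 window nearest its overlap with Wdr78 held 43.67% with a ratio of 0.5, and the other Mier1 window 78.0% with 1.074. The Sp3 windows held 76.33% and 66.67%, with ratios of 0.9767 and 0.8703.

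A few short motifs, picked after the sequences were seen, were searched on both strands. The shared stretches were also searched for palindromes of 10 bases that occur more than once, and 1 was found. This palindrome, TCTCGCGAGA, occurred at 2 places in the Ofd1 window and in the Trappc2 window, both inside the capitals, and in 0.466% of all windows (153 of 32851). CCAAT, the letters of the CCAAT box, occurred at 2 places in both windows of Ccl25 and in that of Elavl1, at 1 in the upstream Sp3 window and in 1 Mier1 window, and in 37.4% of all windows. GGGCGG, the GC box that Sp proteins are known to bind, occurred at 5 places in the Sp3 window that spans the first base of Sp3os and at 2 in the upstream Sp3 window. It also occurred at 1 place each in the Ccdc122, Lacc1 and Ofd1 windows, at 3 in the Trappc2 window and at 1 and 3 in the Mier1 windows, and in 35.7% of all windows. CCGGAAG, the letters of an ETS site, occurred at 1 place in the Lacc1 window and in the upstream Sp3 window, and in 8.86% of all windows. TATAAA was in none of the 3 printed windows, at 1 place in the downstream Ccl25 window and in 1 Mier1 window, and in 13.6% of all. The RefSeq promoter table matched 8 of the 10 genes, all but Sp3os and Wdr78.

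Ccl25 encodes a chemokine of thymus and small intestine that attracts T cells carrying the receptor Ccr9. It was higher with RECTAS in 7 of 7 lines. In Pan02 it had 9.90, 10.9 and 10.2 TPM with RECTAS, against 4.70, 5.11 and 3.79 TPM with DMSO. In MC38 it had 42.2, 34.4 and 38.6 TPM with RECTAS, against 24.2, 23.4 and 22.0 TPM with DMSO. In EG7, the line with the smallest ratio, it had 20.3, 19.8 and 17.8 TPM with RECTAS, against 11.8, 13.3 and 14.1 TPM with DMSO. The groups did not overlap in any line. Over the 7 lines the mean was 27.5 TPM with RECTAS and 16.2 TPM with DMSO, and the ratio ran between 1.48 (EG7) and 2.27 (Pan02). On the log2(TPM + 1) scale the mean difference was 0.74 ± 0.0383 (SE), given as a description because it chose the pair. The receptors of Ccl25, Ccr9 and Ackr4, were under the filter of 1 TPM in at least 1 line.

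Elavl1, the partner of Ccl25, encodes HuR, an RNA-binding protein that stabilises mRNAs with AU-rich elements. It averaged 74.6 TPM with RECTAS and 76.6 TPM with DMSO over the 7 lines. In CT26 it had 102.5, 101.9 and 97.4 TPM with RECTAS, against 107, 109 and 109.8 TPM with DMSO. In WEHI3 it had 60.6, 61.0 and 61.6 TPM with RECTAS, against 67.9, 65.6 and 62.5 TPM with DMSO. In these lines all RECTAS libraries were below all DMSO libraries, and in the other 5 lines the groups overlapped. Averaged over lines, Elavl1 fell by 0.03 on the log2(TPM + 1) scale (SE 0.0126, 95% interval -0.0604 to -0.00893, limma adjusted p = 0.0406). The direction was opposite to that of Ccl25, and the size lay below the median absolute difference of all genes tested, 0.0372. In the same test 25.8% of all genes tested were called at an adjusted p under 0.05. The call was lost without any 1 of 23 of the 42 libraries, with adjusted p-values of 0.0175 to 0.0728 over all 42, and under median-ratio scaling the adjusted p was 0.340.

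Ccdc122, a coiled-coil protein, was higher with RECTAS in each of the 6 lines that expressed it. In MC38 it had 10.1, 11.9 and 10.1 TPM with RECTAS, against 3.62, 4.64 and 3.27 TPM with DMSO. In Pan02 it had 2.2, 1.90 and 1.81 TPM with RECTAS, against 0.54, 0.58 and 0.60 TPM with DMSO. In LLC, with the smallest ratio, it had 6.90, 6.34 and 6.64 TPM with RECTAS, against 5.20, 4.18 and 4.36 TPM with DMSO. All RECTAS libraries were above all DMSO libraries in these 3 lines and in B16, CT26 and WEHI3. In EG7 it was listed at 0 in all 6 libraries. The ratio ran between 1.45 (LLC) and 3.44 (Pan02), and over the 6 lines without EG7 the mean difference was 0.74 ± 0.0369 (SE) on the log2(TPM + 1) scale. It was 0.64 without MC38.

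Lacc1, the partner of Ccdc122, is an enzyme that acts on purine nucleosides in macrophages. It was also near 0 in EG7, at most 0.05 TPM, so its test used the other 6 lines. In B16 it had 6.31, 6.47 and 6.79 TPM with RECTAS, against 7.61, 8.04 and 7.22 TPM with DMSO. In Pan02 it had 3.91, 4.09 and 4.00 TPM with RECTAS, against 3.88, 3.72 and 3.77 TPM with DMSO. All RECTAS libraries were below DMSO in B16 and above DMSO in Pan02, and the groups overlapped in CT26, LLC, MC38 and WEHI3. In MC38, where Ccdc122 had a ratio of 2.79, Lacc1 had 11.1, 11.4 and 10.5 TPM with RECTAS, against 10.3, 11.5 and 10.5 TPM with DMSO. The mean difference was -0.01 (SE 0.0328, 95% interval -0.0814 to 0.0531, limma adjusted p = 0.819), in a fit where 22.3% of genes were called. Its sign turned without LLC RECTAS replicate 2 (0.0029) and without the line B16 (0.022).

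Sp3os, the transcript antisense to Sp3, had a higher mean with RECTAS in 7 of 7 lines. In WEHI3 it had 7.29, 8.92 and 7.86 TPM with RECTAS, against 2.53, 4.59 and 4.66 TPM with DMSO. In EG7 it had 9.48, 7.27 and 9.83 TPM with RECTAS, against 5.42, 5.79 and 5.71 TPM with DMSO. In LLC it had 9.94, 8.47 and 7.76 TPM with RECTAS, against 9.25, 4.64 and 6.27 TPM with DMSO. LLC was the line where the groups overlapped, and in the other 6 all RECTAS libraries were above all DMSO libraries. Over the 7 lines it averaged 10.2 TPM with RECTAS and 7.30 TPM with DMSO, with ratios of 1.24 (B16) to 2.04 (WEHI3) and a mean difference of 0.48 ± 0.0601 (SE) on the log2(TPM + 1) scale.

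Sp3 encodes a zinc finger transcription factor that binds GC boxes. It averaged 28.2 TPM with RECTAS and 27.9 TPM with DMSO, and its groups overlapped in all 7 lines. In EG7 it had 25.7, 24.6 and 25.6 TPM with RECTAS, against 24.7, 25.8 and 25.1 TPM with DMSO. In B16 it had 30.7, 20.5 and 24.5 TPM with RECTAS, against 28.8, 32.1 and 31.5 TPM with DMSO. The spread within groups was wide, up to the LLC values of 32.4, 27.0 and 39.7 TPM with RECTAS, against 39.2, 23.5 and 35.9 TPM with DMSO. The mean difference was 0.0054 (SE 0.0541, 95% interval -0.105 to 0.116, limma adjusted p = 0.959), and its sign turned in 10 of 42 fits without 1 library, within -0.026 to 0.025.

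Ofd1 encodes a protein of the distal centriole and of centriolar satellites that is needed for cilia, and its loss in human causes oral-facial-digital syndrome. It was lower with RECTAS in 7 of 7 lines, and the groups did not overlap in any. In B16 it had 5.46, 4.31 and 4.49 TPM with RECTAS, against 9.35, 9.03 and 9.51 TPM with DMSO. In Pan02 it had 1.97, 1.86 and 2.14 TPM with RECTAS, against 3.50, 3.49 and 3.52 TPM with DMSO. In EG7 it had 3.02, 2.73 and 2.81 TPM with RECTAS, against 4.46, 4.68 and 4.68 TPM with DMSO. The ratio ran only between 0.511 (B16) and 0.619 (EG7), so the lines lay close together. The means over lines were 3.26 TPM with RECTAS and 5.80 TPM with DMSO, a difference of -0.66 ± 0.0287 (SE) on the log2(TPM + 1) scale.

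Trappc2 encodes sedlin, a subunit of the TRAPP complexes that tether vesicles between the endoplasmic reticulum and the Golgi apparatus. It averaged 10.9 TPM with RECTAS and 10.7 TPM with DMSO over the lines. In B16 it had 18.6, 15.2 and 16.3 TPM with RECTAS, against 19.5, 19.5 and 19.7 TPM with DMSO. In Pan02 it had 12.3, 11.7 and 14.6 TPM with RECTAS, against 9.47, 11.1 and 9.99 TPM with DMSO. In CT26 it had 9.79, 8.61 and 8.56 TPM with RECTAS, against 7.98, 7.39 and 6.96 TPM with DMSO. All RECTAS libraries were below DMSO in B16 and above DMSO in CT26 and Pan02, and the groups overlapped in the other 4 lines. The mean difference was 0.05 (SE 0.0449, 95% interval -0.0390 to 0.144, limma adjusted p = 0.446), opposite in sign to Ofd1. The test that the 7 lines had equal Trappc2 differences gave an adjusted p of 0.268 (limma F-test), and without the line LLC it gave 0.0300.

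Wdr78 encodes a WD-repeat intermediate chain of axonemal dynein, the motor of motile cilia. It was lower with RECTAS in 7 of 7 lines, but at low levels. In Pan02 it had 0.79, 0.57 and 0.79 TPM with RECTAS, against 1.90, 2.19 and 1.60 TPM with DMSO. In MC38 it had 0.96, 1.07 and 1.41 TPM with RECTAS, against 1.47, 1.88 and 1.59 TPM with DMSO. In CT26 it had 0.38, 0.32 and 0.30 TPM with RECTAS, against 0.94, 0.70 and 0.40 TPM with DMSO. The groups did not overlap in any line, although in CT26 the lowest DMSO library came close to the RECTAS libraries. The ratio ran between 0.378 (Pan02) and 0.696 (MC38). Wdr78 did not reach a mean of 1 TPM in every line, and in a fit with no filter its difference was -0.45 ± 0.0375 (SE) on the log2(TPM + 1) scale, which understates the fold at such levels. With a pseudocount of 0.1 TPM in place of 1 it was -0.87, and with 5 it was -0.15.

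Mier1, the partner of Wdr78, is a transcriptional regulator that recruits histone deacetylases. It averaged 24.1 TPM with RECTAS and 25.9 TPM with DMSO. In EG7 it had 29.3, 31.5 and 32.2 TPM with RECTAS, against 33.5, 32.6 and 33.7 TPM with DMSO, without overlap. In WEHI3 it had 35.7, 45.3 and 32.9 TPM with RECTAS, against 42.7, 43.5 and 46.1 TPM with DMSO, and there, as in the remaining lines, the groups overlapped. The mean difference was -0.08 (SE 0.0494, 95% interval -0.184 to 0.0176, limma adjusted p = 0.241).

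**Figure D2:**
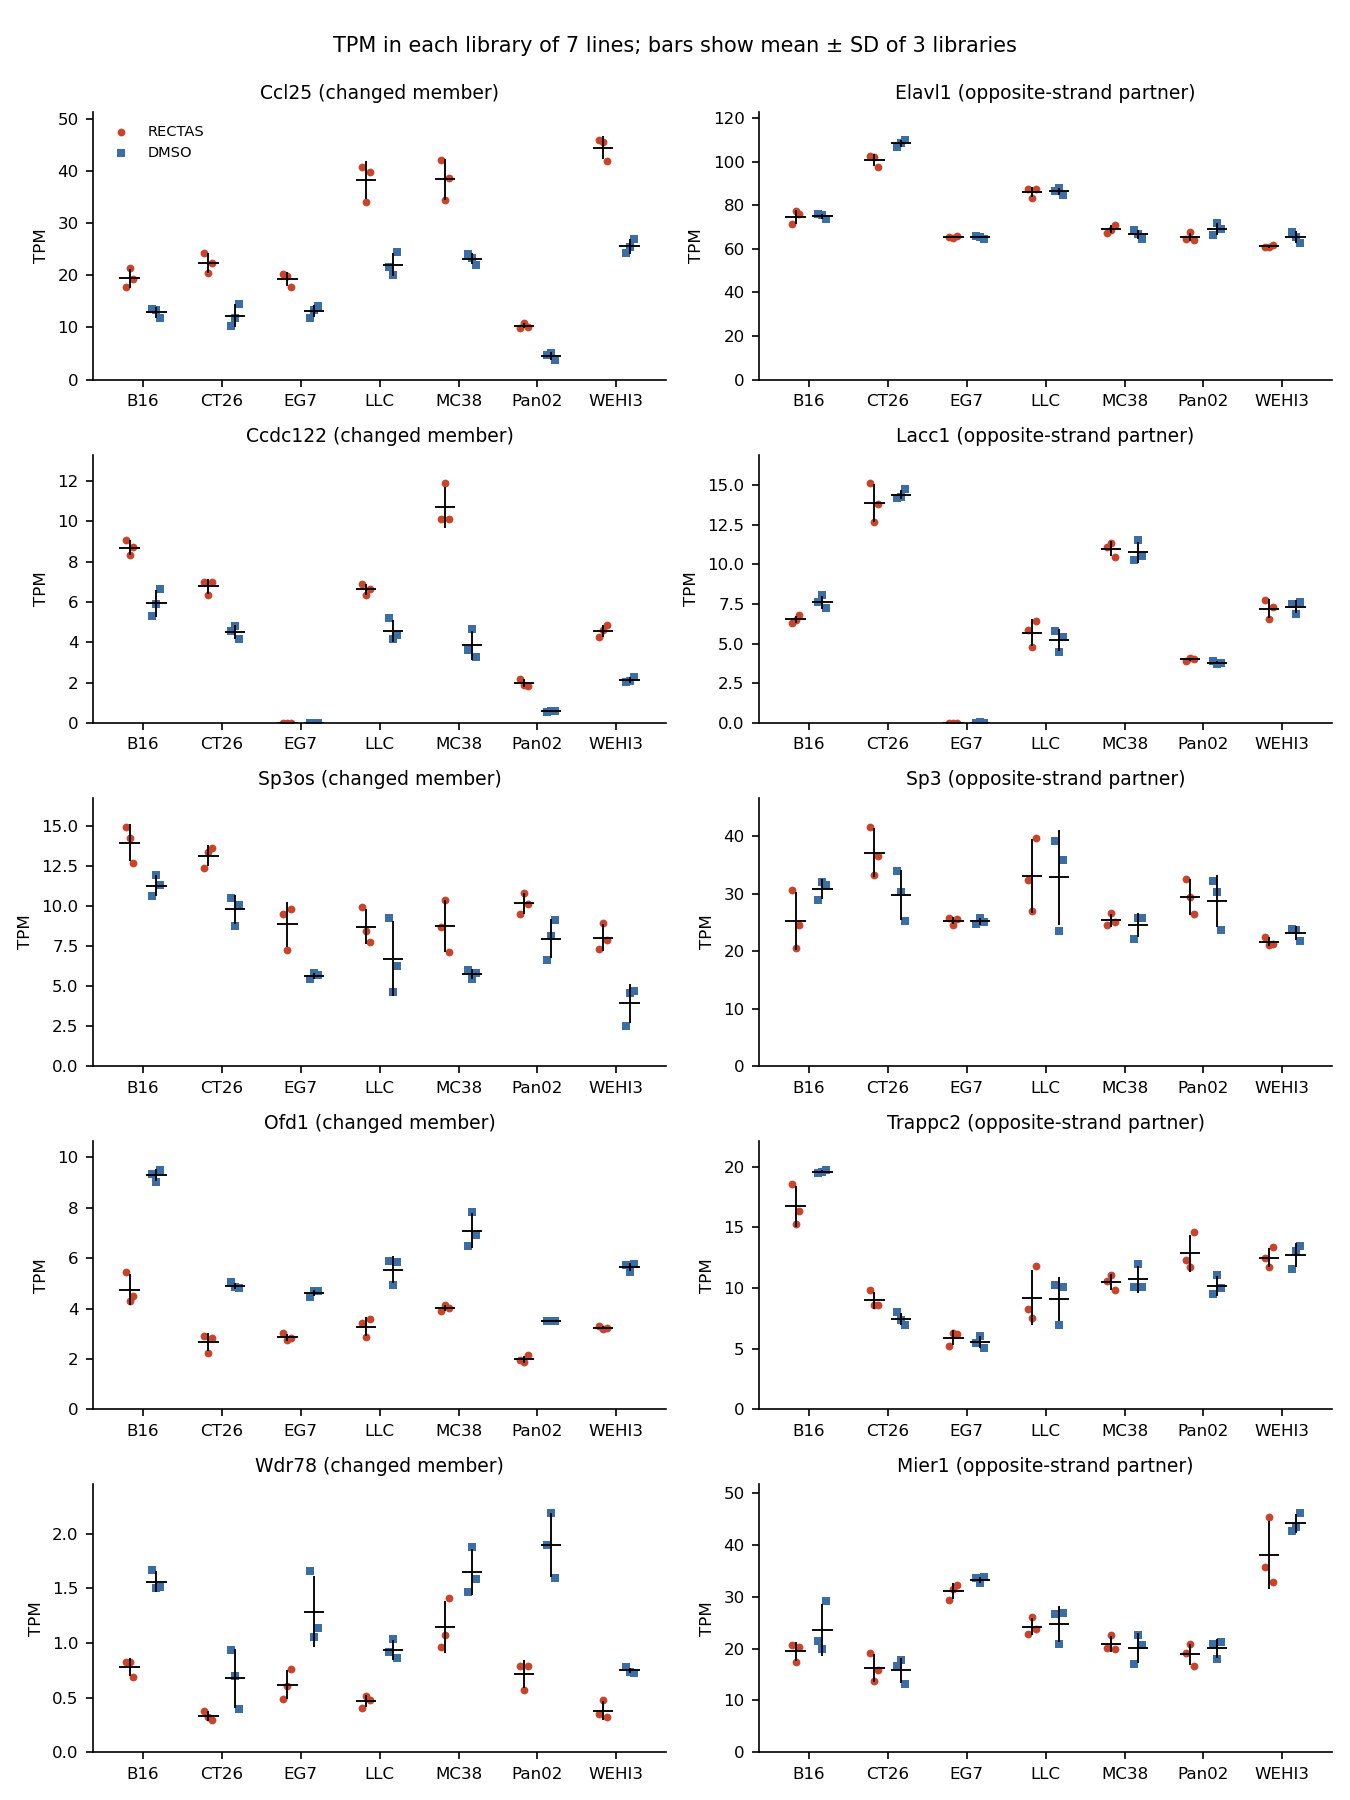
TPM of the 10 genes in all 42 libraries, with RECTAS (red circles) left of DMSO (blue squares) in each line, and the changed gene of each pair left of its partner. Each point is 1 library and the bars show the mean ± SD of 3. Ccl25 and Ofd1 show no overlap between treatments in any line, and Sp3 overlaps in every line.

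Across pairs, the changed genes had RECTAS and DMSO libraries without overlap in 33 of the 34 cases of a gene in a line that expressed the pair, 19 above and 14 below DMSO. Those cases follow from the choice of the pairs. Among the partners, groups did not overlap in 8 of 34 cases (23.5%), 3 above and 5 below, while over all genes and lines 24.4% of cases did not overlap. Tested line by line, 0 of 34 partner cases were called (limma, adjusted p under 0.05, lowest 0.112 for Trappc2 in B16), where 2.08% of all cases were called. By line the share of all genes called was 4.1% in B16, 1.99% in CT26, 3.28% in EG7, 0.194% in LLC, 1.29% in MC38, 1.68% in Pan02 and 2.08% in WEHI3. At an unadjusted p under 0.05 there were 7 of 34, beside 18.2% of all cases. These were Elavl1 in CT26 and WEHI3, Lacc1 in B16, Sp3 in CT26, and Trappc2 in B16, CT26 and Pan02. Leaving out B16 RECTAS replicate 1 brought 2 partners in B16 past the threshold in limma, Trappc2 (-0.30, adjusted p = 0.0258) and Sp3 (-0.44, adjusted p = 0.0299). The share of all genes called in that refit is not given here, and the 4.1% above belongs to the full B16 fit. Whether these 2 calls stand out therefore cannot be read.

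The partner differences in single lines ran between -0.29 (Sp3 in B16) and 0.31 (Sp3 in CT26) on the log2(TPM + 1) scale, 16 above 0 and 18 below. The signs of the 2 genes of a pair were the same in 18 cases and opposite in 16. None of the 5 partners was called for differences that varied between lines. The limma F-test over 7 lines gave an adjusted p of 0.158 for Elavl1, 0.410 for Sp3, 0.268 for Trappc2 and 0.722 for Mier1. In that test 3.07% of all genes were called. For Lacc1 the limma F-test covered the 6 lines without EG7 and gave an adjusted p of 0.403. Elavl1 was the 1 partner with an unadjusted p under 0.05.

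**Figure D3:**
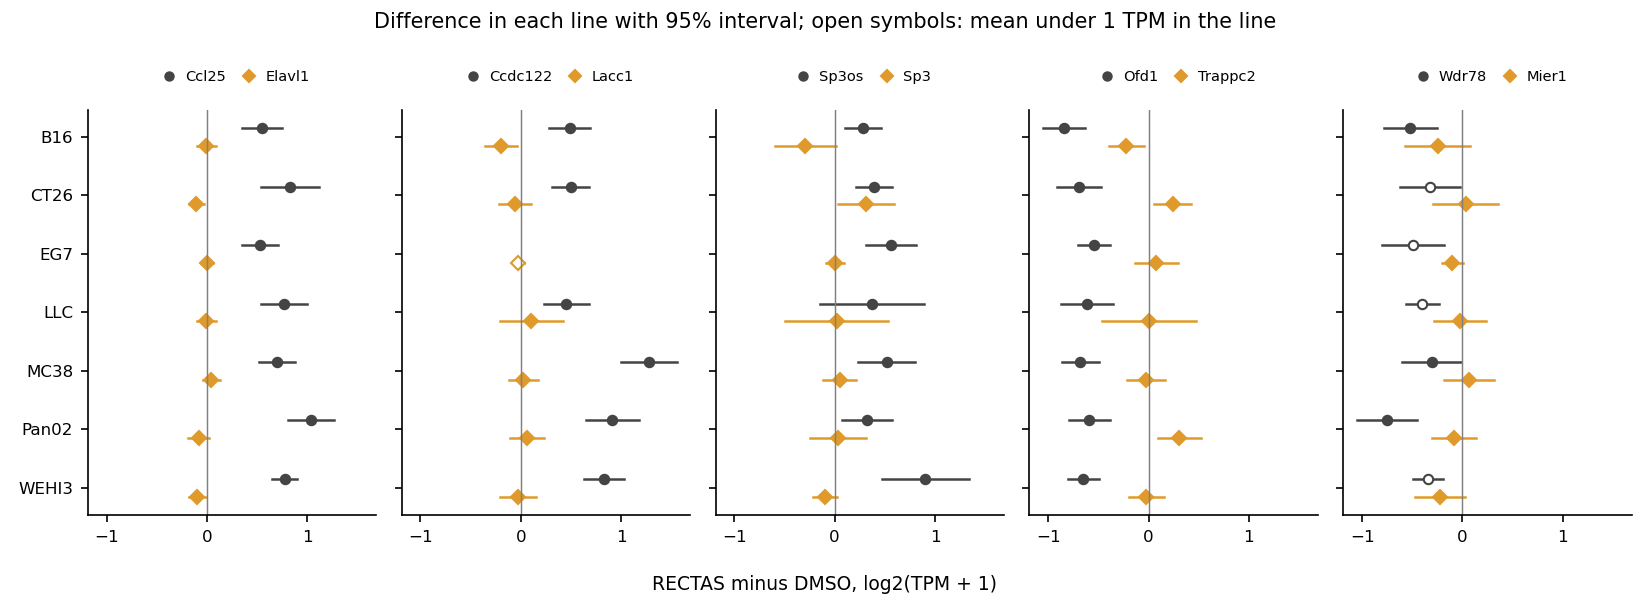
RECTAS minus DMSO difference on the log2(TPM + 1) scale in each line, for the changed gene and the partner of each pair, with 95% intervals from limma and open symbols where the mean in the line was under 1 TPM. The changed genes lie on 1 side of 0 in every line that expressed them, while the partner points lie between -0.29 and 0.31.

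The levels with DMSO were not used to choose the pairs and differed between lines for 9 of the 10 genes (limma F-test over 21 libraries, adjusted p of 3.45e-05 or less), as they did for 97.3% of all genes. Sp3 was the exception (adjusted p = 0.0538), with line means of 23.1 to 32.9 TPM. It was called too, making 10 of 10 genes, under median-ratio scaling and quantile normalization, without CT26 DMSO replicate 3, LLC DMSO replicate 2 or Pan02 DMSO replicate 3, and without the line CT26, LLC or Pan02. Ccl25 was lowest in Pan02 (4.53 ± 0.676 TPM, SD, n = 3) and highest in WEHI3 (25.5 ± 1.38), MC38 (23.2 ± 1.10) and LLC (22.0 ± 2.19), and the LLC libraries overlapped those of both other lines. Elavl1 was highest in CT26 (108 ± 1.58 TPM) and lay between 65.3 and 86.3 TPM in the other 6 lines. Ofd1 and Trappc2 were both highest in B16, at 9.30 ± 0.245 and 19.6 ± 0.132 TPM. Lacc1 was highest in CT26 (14.4 ± 0.299 TPM), whereas Ccdc122 was highest in B16 (5.95 ± 0.670 TPM). Mier1 was highest in WEHI3 (44.1 ± 1.78 TPM), where Wdr78 was among its lowest (0.750 ± 0.0265 TPM).

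Over the 7 line means, Ccdc122 and Lacc1 had a Pearson correlation of 0.84 and a Spearman correlation of 0.61, with EG7 near 0 for both. The values were 0.78 and 0.75 for Sp3os and Sp3, and 0.69 and 0.75 for Ofd1 and Trappc2. They were -0.057 and -0.57 for Ccl25 and Elavl1, and -0.23 and -0.18 for Wdr78 and Mier1. With 7 points each, these describe the lines only. No partner was its gene's closest match: of 16108 genes, 171 were more alike to Ccdc122 than Lacc1 was, the fewest of the 5, and 11558 were more alike to Wdr78 than Mier1 was. The closest were Maoa for Ccdc122 (0.980), Septin5 for Lacc1 (0.983), Fbxw5 for Sp3os (0.979), Gm5619 for Sp3 (0.975), Osgin2 for Ofd1 (0.981), F420014N23Rik for Trappc2 (0.989), 9330159M07Rik for Ccl25 (0.957), Plekhh2 for Elavl1 (0.985), Gdpd1 for Wdr78 (0.979) and Safb2 for Mier1 (0.976).

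**Figure D4:**
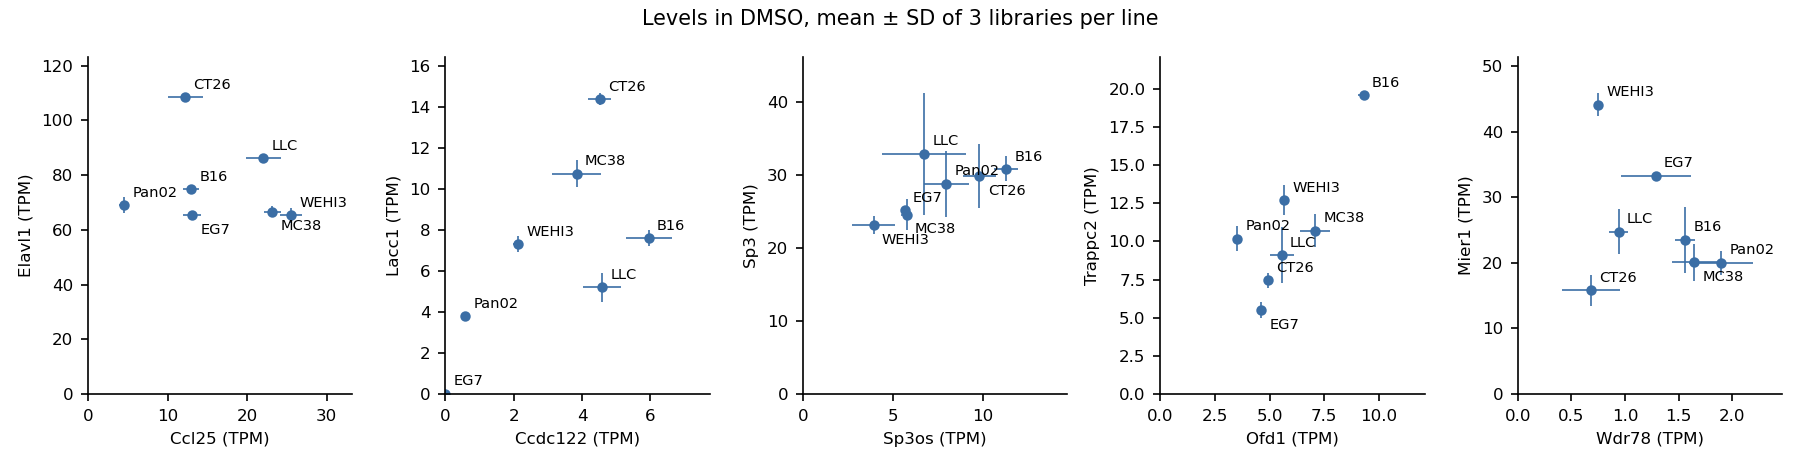
Level of each partner against its changed gene with DMSO, in TPM, 1 point per line with the mean ± SD of 3 libraries. Ccdc122 and Lacc1 are both near 0 in EG7, and Ofd1 and Trappc2 are both highest in B16.

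The annotation held 10861 pairs of genes that overlap on opposite strands, 2041 of them head to head, and 867 had both genes tested on average over the lines. In those 867 pairs 27.16% of genes were called, and of the called genes 27.6% had a called partner (130 of 471). Both genes were called in 65 pairs, 25 in the same and 40 in the opposite direction. Among 371 head-to-head pairs the called genes had a called partner in 34.55%, while 29.65% of all genes in those pairs were called. They included 38 pairs with both called, 14 in the same and 24 in the opposite direction. Of the 5 pairs described here, 3 were among those tested, and 1 partner, Elavl1, was called.

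**Figure D5:**
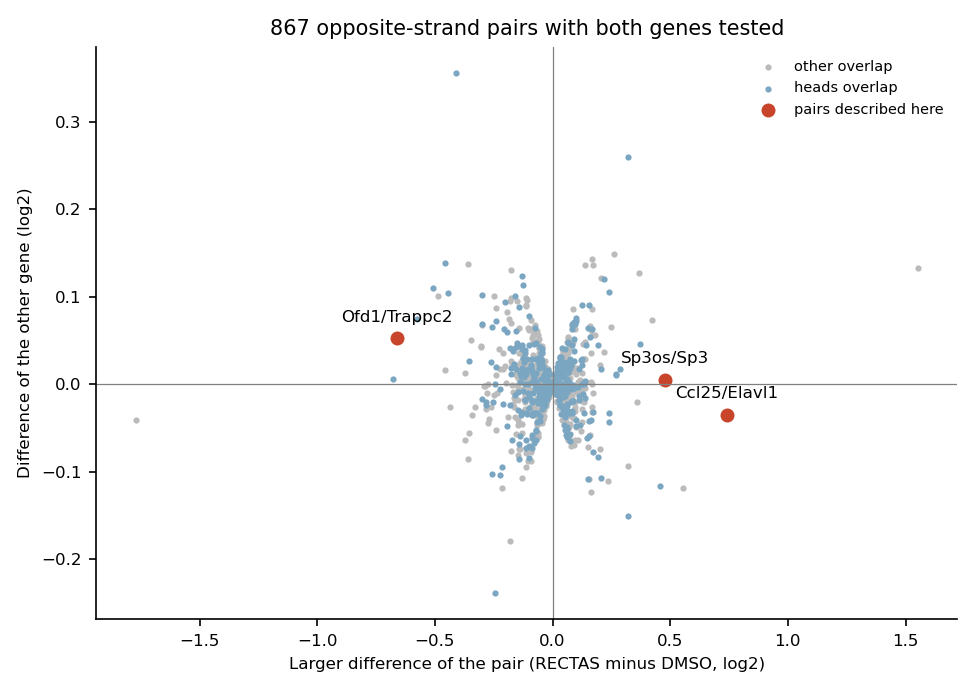
RECTAS minus DMSO difference on the log2(TPM + 1) scale of the 2 genes of each of the 867 overlapping pairs with both genes tested, the gene with the larger absolute difference on the horizontal and its partner on the vertical axis, which have different scales. Ccl25, Sp3os and Ofd1 lie far out on the horizontal axis with partners within -0.03 to 0.05.

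The pathways around the partners and the changed genes were read from lists of known genes, beside the 9.86% of all genes called higher and 15.9% called lower. Of 7 tested proteins that bind AU-rich elements as Elavl1 does, 2 rose and 2 fell (median difference -0.00098). Tia1, which represses translation in stress granules, fell to 21.4 TPM with RECTAS, against 28.9 TPM with DMSO (-0.41, limma adjusted p = 4.07e-09), and its relative Tial1 fell by 0.11, while Hnrnpd rose by 0.07 and Zfp36l2 by 0.06. Of 11 tested mRNAs known to be bound by the Elavl1 protein, 3 rose and 1 fell (median 0.01): Sirt1 (0.11), Xiap (0.11) and Ccnb1 (0.04) rose, and Actb fell by 0.11.

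Of 11 tested centriolar satellite and distal centriole genes, the partners of the Ofd1 protein, 2 rose and 0 fell (median 0.04). Pibf1, a satellite protein that itself overlaps the 5′ end of Dis3, rose to 7.55 TPM with RECTAS, against 6.13 TPM with DMSO (0.26, limma adjusted p = 8.53e-08), and Fopnl rose by 0.08. Cep350 (-0.12, limma adjusted p = 0.0718) and Ssx2ip (0.04, 0.0825) did not pass. Of 13 TRAPP subunits beside Trappc2, 3 rose and 2 fell (median 0.01). Trappc12 rose by 0.15 (limma adjusted p = 3.58e-10) and Trappc3 by 0.05, and Trappc6a fell by 0.16 and Trappc8 by 0.09.

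Of 4 tested purine nucleoside enzymes, 1 rose, Hprt (0.05), with a median of 0.02. Of 3 tested relatives of Sp3, 0 were called by limma, and 0 had an unadjusted p under 0.05: Sp4 stood at 0.07, Sp1 at 0.04 and Sp2 at 0.02. Of 4 tested genes of the MIER family and its deacetylase partners, 1 fell, Hdac1 (-0.04), with a median of -0.03. None of the 6 axonemal dynein genes related to Wdr78 reached 1 TPM in every line.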

How the data were processed

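Polyadenylated RNA was sequenced from 42 libraries made with a stranded mRNA kit, per the labels. HISAT2 2.2.0, RSEM 1.3.0 and the GRCm38 build are listed, without their roles, per the submitters' processing notes. The authors deposited TPM per gene, 1 table per library, with no scaling between libraries stated. TPM holds no read counts, so depth stays unknown and there are no counting intervals. Overlaps came from GENCODE M21, in which 55141 of 55401 gene IDs (99.53%) were found.

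Differences were fitted on log2(TPM + 1), which understates the fold of low genes, with limma 3.58.1 in R 4.3.3 (14 group means, intensity trend, two-sided). The fit covered the 8775 genes that averaged 1 TPM or more in each of the 7 lines, with Benjamini-Hochberg adjustment over all of them. Each line was also fitted alone over genes that averaged 1 TPM or more in it. F-tests with 6 degrees of freedom compared the 7 lines, and the F-test of Lacc1 compared only the 6 lines without EG7. Ccdc122 and Lacc1 missed the filter in EG7 and were fitted on the other 6 lines, and Wdr78 was fitted with no filter. The scripts were tested on simulated data. Changed genes were given no test.

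Alternatives were the pseudocount, the filter, the scaling, the trend, a replicate block, exon overlap, and leaving out each library or line. The members, lists and tests were chosen with earlier results of these data known. Named genes were the 10 members, up to 4 genes with the smallest p in each list, the gene most alike to each member over the DMSO line means, and the 5 other pairs with the smallest product of p among pairs with both genes called.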

Additional observations from a re-analysis of the deposited data

How the results depend on the processing

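Elavl1 kept its direction in all settings run, but its call rested on the processing. The difference was -0.035 with an adjusted p of 0.0745 with no filter, -0.026 (0.340) under median-ratio scaling, -0.028 (0.143) under quantile normalization, -0.023 (0.279) without CT26, -0.027 (0.145) without Pan02 and -0.025 (0.218) without WEHI3. Leaving out 1 library gave -0.039 to -0.030, and the call was lost for 23 libraries: B16 DMSO 1 and 2 and RECTAS 1; CT26 DMSO 2 and 3 and RECTAS 3; EG7 DMSO 1 and 2 and RECTAS 2; LLC DMSO 1 and 2 and RECTAS 2; MC38 DMSO 1 and 2 and RECTAS 1 and 2; Pan02 DMSO 2 and RECTAS 1 and 3; WEHI3 DMSO 1 and 2 and RECTAS 1 and 2. The Lacc1 difference changed sign under quantile normalization (0.012) and without B16 (0.022), and ran between -0.029 and 0.0029 without 1 library. That of Sp3 changed sign without CT26 (-0.046) and MC38 (-0.0019), and ran between -0.026 and 0.025 without 1 library. None of these Lacc1 and Sp3 values passed the test. Trappc2 (0.028 to 0.069) and Mier1 (-0.10 to -0.060) kept their signs and did not pass the test when 1 library was left out. Without LLC, 1 partner, Trappc2, was called for differences between lines. Partner calls in single lines numbered 0 to 2 when 1 library was left out. Over all overlapping pairs, 13.03% of called genes had a called partner with no filter, where 3016 of 33852 genes were called. The causes of these shifts were not tested.

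The replicate numbers did not pair the samples across the lines: deviations of same-numbered libraries correlated at -0.12 to 0.29 over 21 pairs, 2 of them over 0.1. Those 2 pairs were LLC replicates 2 (0.286) and 3 (0.151), beside 0.093 for LLC replicate 1, so a pairing in LLC remains possible. With the replicate block the Elavl1 difference was -0.035 (adjusted p = 0.0736), no other partner call changed, and 2353 genes were called in place of 2261. The block lowered the SE from 0.0541 to 0.0384 for Sp3, from 0.0449 to 0.0337 for Trappc2 and from 0.0328 to 0.0253 for Lacc1. For Mier1 the SE went from 0.0494 to 0.0487, and for Elavl1 it rose from 0.0126 to 0.0138. The changed genes kept their sign in every setting. With a pseudocount of 5 TPM the difference was 0.60 for Ccl25, 0.42 for Ccdc122 and -0.38 for Ofd1, and with 0.1 TPM it was 0.97 for Ccdc122 and -0.80 for Ofd1. Calls over all genes were 865 higher and 1396 lower as deposited, 1129 and 1122 after median-ratio scaling, and 1315 and 1169 after quantile normalization. Depth is unknown, so what it limits could not be set.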

Other observations

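Other overlapping pairs were read by the same test. Among the 5 with the smallest product of p and both genes called, 4 moved in opposite directions. Nprl3, a GATOR1 subunit and so a brake on mTORC1, rose by 0.55 on the log2(TPM + 1) scale while Mpg, a DNA repair glycosylase on the other strand of the same stretch of chromosome 11, fell by 0.12 (limma adjusted p = 2.44e-19 and 9.73e-05). Alg3, a mannosyltransferase of N-glycan synthesis, fell by 0.44 opposite Eef1akmt4, which rose by 0.10. Ndufs3, a subunit of respiratory complex I, fell by 0.30 opposite Kbtbd4, which rose by 0.07. Dimt1, an rRNA methyltransferase, fell by 0.48 and Kif2a, a kinesin whose gene meets it tail to tail, rose by 0.10. Pibf1 and Dis3, a catalytic subunit of the RNA exosome, overlap head to head over 325 bases of exon on chromosome 14, and both rose, by 0.26 and 0.32.

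Of 7 other tested pairs with a called difference of at least the size of Sp3os (0.4788), 3 had a called partner, all 3 in the opposite direction. Of the 3 head-to-head pairs among these 7, 1 had a called partner, as had 1 of the 3 head-to-head pairs Ccl25/Elavl1, Sp3os/Sp3 and Ofd1/Trappc2. The median absolute partner difference was 0.03464 in Ccl25/Elavl1, Sp3os/Sp3 and Ofd1/Trappc2, 0.07445 in the 3 other head-to-head pairs and 0.1014 in all 7. Exons overlapped in most but not all of these pairs. Where they overlap, the shared-exon reads depend on the strand setting of the counting, and their part in these differences was not tested.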
